A study of Mus musculus with 8 samples.

Results

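Reactive oxygen species are both made and removed by microglia, the resident macrophages of the brain, and 34 genes for these functions were examined: the NRF2 regulators, the antioxidant enzymes, the enzymes that supply NADPH, and 4 subunits of the phagocyte NADPH oxidase. The genes were chosen by name for these roles, with earlier results of these data known. Each of the 34 symbols matched 1 identifier among the 55385 genes of the count table, and all 34 had enough counts to be tested, of 17537 genes tested in all. The libraries came from wild-type microglia of the neocortex and hippocampus of newborn mice, grown in mixed culture from pooled brains and then shaken off. The 4 IgG cultures received 10 µg/ml IgG for 24 h from DIV15, and the 4 control cultures are called untreated in the labels and PBS-treated in the methods. A control and an IgG culture with the same replicate number share a date, so that the libraries form 4 pairs. Because brains were pooled, the replicate is a culture and not a mouse, and RNA per cell cannot be told apart from the makeup of the culture.

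NRF2, encoded by Nfe2l2, is a transcription factor held at low protein levels by KEAP1 and released when KEAP1 is oxidized. It then binds antioxidant response elements (ARE) near genes for glutathione and thioredoxin enzymes, heme oxygenase, ferritin and NADPH supply. The phagocyte NADPH oxidase instead makes superoxide: gp91phox and p22phox (Cybb and Cyba) sit in the membrane, and cytosolic subunits such as p47phox and p40phox and the GTPase RAC2 join them on activation, as in macrophages that bind antibody-coated targets through Fc receptors.

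Totals ran from 21287816 to 23703216 counts per library, and a gene with 0 counts could have had up to 3, or 0.124 to 0.147 CPM (counts relative to the TMM-scaled library total). The sum of 10 microglia markers was 5661 to 6202 CPM in control and 5986 to 7109 CPM in IgG libraries. Markers of the oligodendrocyte lineage summed to 1132 to 1726 CPM in control and 972 to 1622 CPM in IgG libraries, with the 2 lowest sums in IgG replicates 1 and 3. In the same 2 libraries astrocyte markers summed to 149 and 165 CPM, against 171 to 196 CPM in the other 6, and border-associated macrophage markers to 106 and 106 CPM, against 51.3 to 81.9 CPM; the part of these cells in the results was not tested. Of the 10 microglia markers, 2 were called in edgeR's quasi-likelihood test of IgG against control, beside 0.393% of all genes: Fcrls and Aif1 were higher, by 0.83 and 0.69 on the log2 scale (adjusted p = 0.0329 and 0.0331). Of 8 neutrophil markers, which would accompany another cell rich in NADPH oxidase, S100a9, Mpo, Elane and Ly6g had 0 counts everywhere and the sum was at most 2.41 CPM. IgG replicates 1 and 3 stood apart from the other libraries, with 4.85% and 5.59% of their counts on mitochondrial genes against 1.97% to 2.41% in the other 6.

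In control microglia, ferritin was by far the most abundant product among the 34 genes. Per exon length, Ftl1, the ferritin light chain, was at 5520 ± 224 RPKM (SD, n = 4) and Fth1, the iron-oxidizing heavy chain, at 1581 ± 124 RPKM. Cyba followed at 505 ± 12.0 RPKM and did not separate from Prdx1, a cytosolic peroxiredoxin, at 459 ± 31.9 RPKM. Cybb came next at 252 ± 10.9 RPKM, above Hmox1 at 165 ± 12.9 RPKM, and the ranges of these 2 genes did not overlap. This order depends on the length used, which is that of all annotated exons of a gene. In CPM, without length, Cybb at 1466 ± 63.3 and Prdx1 at 1398 ± 96.9 were above Cyba at 525 ± 12.4. Ftl1 at 7397 ± 300 CPM and Fth1 at 5486 ± 430 CPM were then closer together. At the other end were Osgin1 at 1.22 ± 0.181 RPKM and Nqo1 at 0.672 ± 0.163 RPKM. Nqo1, a quinone reductase often read as an NRF2 target, thus had only 8 to 29 counts in any library. Some members share exon bases with other genes and are less certain for that reason: Ftl1 shares 34.6% with Gm10252 and Gm22133, Prdx2 11.5% with Junb and Rnaseh2a, G6pdx 13.6% with Ikbkg and Keap1 10.9% with Gm16754.

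With IgG, no member passed adjustment over all genes. In edgeR's quasi-likelihood test with the replicate number as a block, 0 of the 34 members had an adjusted p under 0.05, where 0.393% of all genes did, and the smallest adjusted p was 0.196, for Fth1. Only Fth1 met the criterion of an unadjusted p under 0.01 with an absolute log2 fold change above 0.5, which 1.82% of all genes met. At an unadjusted p under 0.05 there were 3 members, Fth1 and Ncf1 on the higher side and Txnrd1 on the lower, beside 10.2% of all genes. By other tests with the block, Fth1 alone was called by the likelihood ratio test (adjusted p = 0.00903, beside 1.86% of all genes called) and by DESeq2 (adjusted p = 0.00319, beside 1.46%), and limma-voom called 0 members, beside 0.502% of all genes. With no filter on low counts, the quasi-likelihood test of edgeR called Fth1 and 1.2% of all genes. Without the block, 0 members and 0% of all genes were called, and 5 members had an unadjusted p under 0.05, beside 7.01% of all genes.

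The median of the members was close to that of all genes. Their median log2 fold change was 0.025, against -0.0051 over all genes tested, with 22 members above 0 and 12 below, where 49.1% of all genes were above 0. For 27 of the 34, the 95% interval of the log2 fold change lay within 0.5 of 0 on both sides, as it did for 50.5% of all genes. Higher in IgG in all 4 pairs were 7 members, Keap1, Sqstm1, Fth1, Gclm, Prdx5, Sod2 and Ncf1, beside 10.4% of all genes, and lower in all 4 pairs were Txnrd1 and Srxn1, beside 8.47% of all genes. The control and IgG libraries did not overlap for 3 members, Fth1, Prdx5 and Ncf1, beside 4.17% of all genes.

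**Figure D1:**
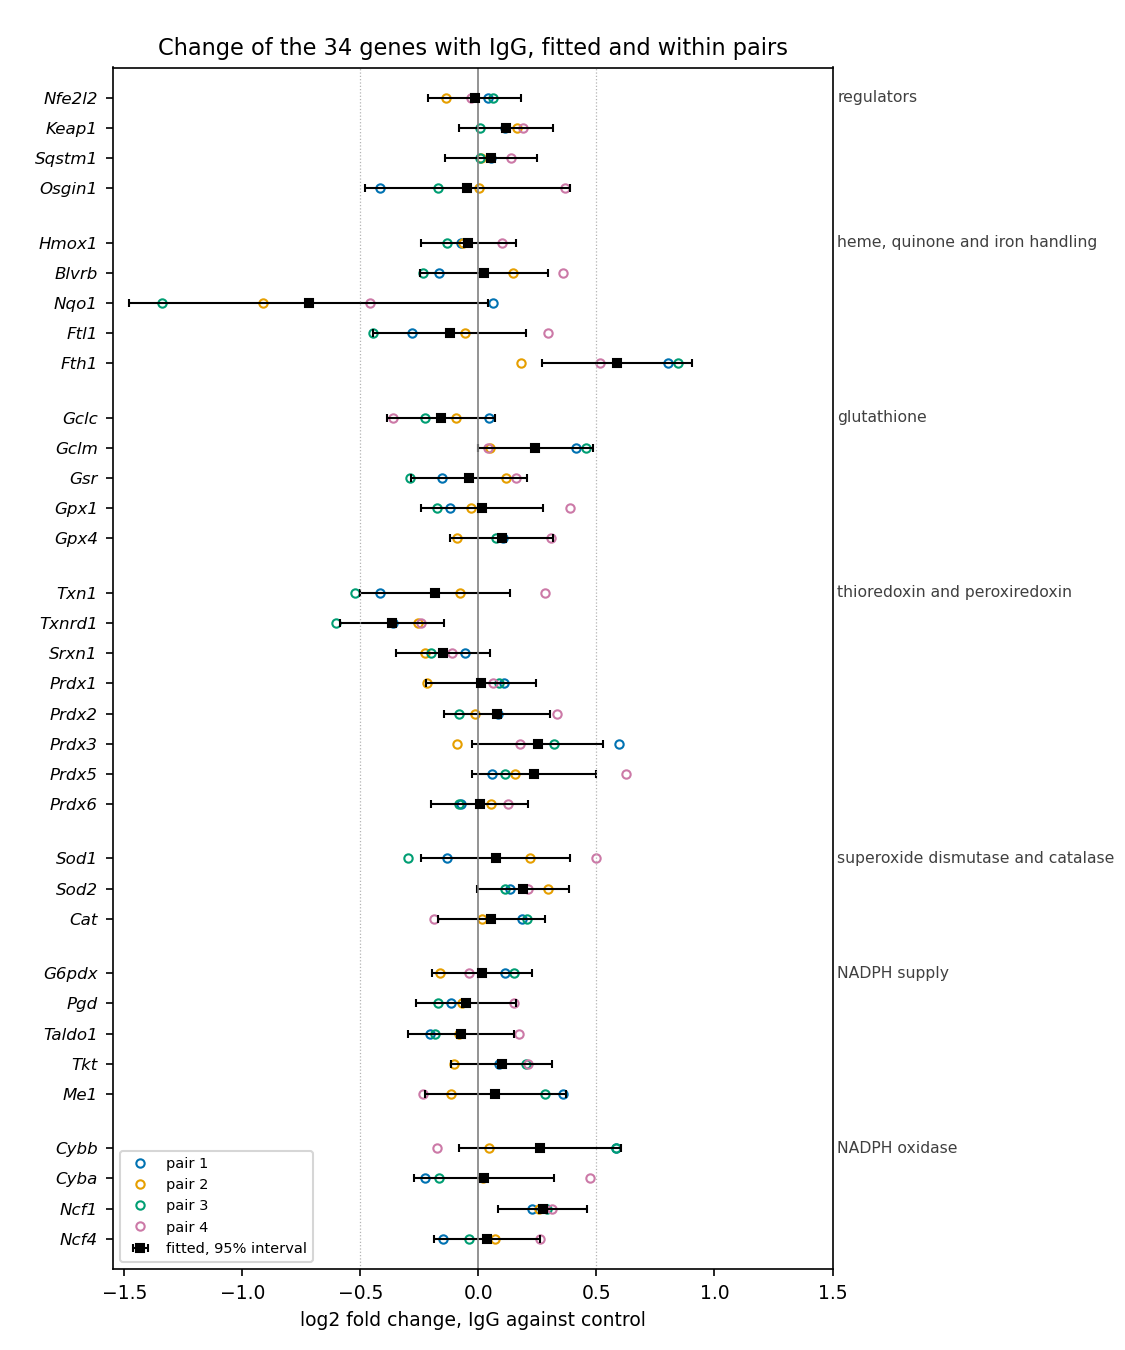
Log2 fold change of each of the 34 genes, IgG against control, grouped by role (black squares with 95% intervals from the blocked edgeR fit; open circles, the 4 pairs; dotted lines, 0.5 on either side of 0). Fth1, Txnrd1 and Ncf1 have intervals that exclude 0 before adjustment, and the circles of pair 4 often lie opposite to those of pairs 1 and 3.

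The IgG libraries also spread more than the controls. The coefficient of variation of CPM was larger in IgG than in control for 30 of the 34 members and for 79.7% of all genes. Its median over the members was 14.0% in IgG and 6.19% in control. Over all genes tested the medians were 19.4% and 9.12%. The members were also compared between dates: in edgeR's quasi-likelihood test of the date terms, 0 members had an adjusted p under 0.05 (0.975% of all genes). Only Blvrb had an unadjusted p under 0.05 for date, beside 9.81% of all genes, and 0 members were called for date by the likelihood ratio test, DESeq2 or limma-voom, which called 5.38%, 3.18% and 0.998% of all genes.

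None of the 4 regulators had an interval that excluded 0. Nfe2l2 averaged 258 ± 11.2 CPM without and 256 ± 12.5 CPM with IgG (SD, n = 4 each), which is -0.016 on the log2 scale with a 95% interval from -0.21 to 0.18. Keap1 was slightly higher in each pair, by 0.0049 to 0.19 on the log2 scale, and its interval ran from -0.080 to 0.32. With the length and GC offsets Keap1 was at 0.20 (SE 0.072, unadjusted p = 0.0227, adjusted p = 0.283, edgeR's quasi-likelihood test). Sqstm1, the autophagy receptor p62 that competes for KEAP1, had an interval from -0.14 to 0.25. Osgin1, an oxidative stress response gene, had 46 to 97 counts per library and an interval from -0.48 to 0.39.

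Fth1 carried the largest positive difference of the 34. Its control libraries 1 to 4 were at 5628, 5383, 4956 and 5978 CPM, and the IgG libraries of the same dates at 9824, 6096, 8899 and 8536 CPM. All IgG libraries lay above all controls, with IgG replicate 2 only just above control replicate 4. The log2 fold change was 0.59 (SE 0.14, 95% interval 0.27 to 0.90), a fold between 1.20 and 1.87 by that interval, with an unadjusted p of 0.00272 and an adjusted p of 0.196 in edgeR's quasi-likelihood test. The value was larger in pairs 1 and 3 (0.80 and 0.84) than in pairs 2 and 4 (0.18 and 0.51). Without the pairs 1 and 3, it was 0.35 (adjusted p = 0.573 in the same test), and the criterion was no longer met. The criterion was also lost without pair 1, without pair 3 and with scaling by total counts. In the fits without the block it was lost without control replicate 2 and without control replicate 3.

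Ftl1 did not share this pattern. Its controls were at 7194, 7258, 7294 and 7843 CPM and its IgG libraries at 5916, 6981, 5355 and 9634 CPM. The IgG libraries thus lay on both sides of the controls, lowest in replicates 1 and 3 and highest in replicate 4. With offsets for length and GC content the 4 pair values of Ftl1 lay between -0.098 and 0.064 on the log2 scale, and pair 1 turned to 0.030. The log2 fold change of Ftl1 was -0.12 in the main fit, with an interval from -0.45 to 0.20, and -0.015 with the offsets. The ratio of Fth1 to Ftl1 counts within a library, which was chosen after the values were seen and has no test, was 0.782, 0.742, 0.679 and 0.762 in control replicates 1 to 4. It was 1.66, 0.873, 1.66 and 0.886 in the IgG replicates, higher in every pair, by 2.12-fold and 2.45-fold in pairs 1 and 3 and by 1.18-fold and 1.16-fold in pairs 2 and 4. The 2 large ratios came from the 2 libraries with the high mitochondrial share, and the part of that share in the ratio was not tested.

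**Figure D2:**
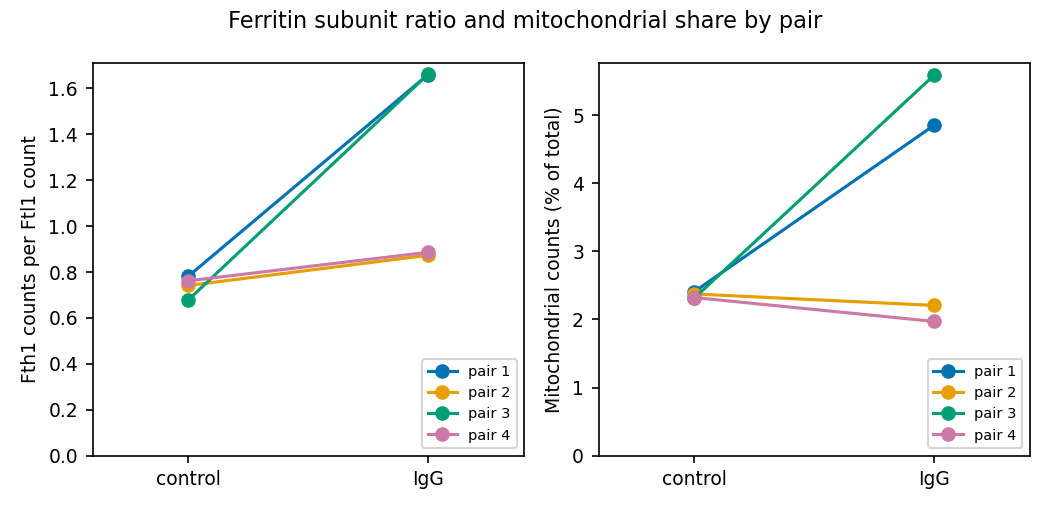
Left, Fth1 counts per Ftl1 count in each library; right, the percent of counts on mitochondrial genes; lines join the control and IgG culture of one date. Both values are highest in IgG replicates 1 and 3, where the ratio is 1.66 and the mitochondrial share is 4.85% and 5.59%.

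The other heme and quinone enzymes were not separated from no change. Hmox1, the inducible heme oxygenase, was at 288 ± 22.6 CPM without and 281 ± 37.7 CPM with IgG (log2 fold change -0.042, interval -0.24 to 0.16). Blvrb, a biliverdin reductase, was higher in pairs 2 and 4 and lower in pairs 1 and 3. Nqo1 had the lowest log2 fold change of the list, -0.72, but from 8 to 16 counts in the IgG libraries and 17 to 29 in the controls, and its interval ran from -1.48 to 0.040.

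Among the glutathione genes, the 2 subunits of the rate-limiting ligase lay on opposite sides of 0. Gclm, the modifier subunit, was higher in every pair, by 0.42 and 0.46 on the log2 scale in pairs 1 and 3 and by 0.051 and 0.041 in pairs 2 and 4. Its fitted log2 fold change was 0.24 with an interval from -0.0036 to 0.49. Gm17494 and Gm6061 overlap 4.71% of its exon bases but held 12654 and 12596 counts, against 17490 for Gclm. They had log2 fold changes of 0.38 and 0.39, and their part in the value of Gclm was not tested. Gclc, the catalytic subunit, was at -0.16 with an interval from -0.39 to 0.070. Of the enzymes that use or restore glutathione, Gsr was at -0.042, Gpx1 at 0.014 and Gpx4, the phospholipid hydroperoxidase, at 0.099, and all 3 intervals contained 0. With the length and GC offsets Gpx4 was at 0.25 (SE 0.11, unadjusted p = 0.0478, adjusted p = 0.347, edgeR's quasi-likelihood test). A processed copy, Gpx4-ps2, held 7706 counts, and Gpx4 is less certain for that reason.

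In the thioredoxin system, Txnrd1, the cytosolic thioredoxin reductase, had the clearest negative difference. Its controls 1 to 4 were at 153, 165, 164 and 188 CPM, and the IgG libraries of the same dates at 119, 138, 108 and 159 CPM. Every IgG culture was below the control of its date, although IgG replicate 4 was above control replicate 1, so that the groups overlapped. The log2 fold change was -0.37 (SE 0.095, interval -0.58 to -0.15), with an unadjusted p of 0.00485 and an adjusted p of 0.264 in edgeR's quasi-likelihood test. No other gene has exons that overlap those of Txnrd1.

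Its substrate Txn1 was not lower in every pair. Txn1 was at -0.42 and -0.52 on the log2 scale in pairs 1 and 3, at -0.079 in pair 2 and at 0.28 in pair 4, with a fitted value of -0.18 and an interval from -0.50 to 0.13. Srxn1, the sulfiredoxin that repairs overoxidized peroxiredoxins, was lower in all 4 pairs by small amounts, for a fitted -0.15 (interval -0.35 to 0.050), and with the length and GC offsets it was higher in pair 1, by 0.059.

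The peroxiredoxins, which reduce hydrogen peroxide, were mostly level. Prdx1, Prdx2 and Prdx6 had log2 fold changes between 0.0064 and 0.080, each with an interval that contained 0. Prdx3, the mitochondrial member, was at 0.25, with an interval from -0.027 to 0.53 and a value below 0 in pair 2. Prdx5 was at 257, 246, 262 and 243 CPM in control replicates 1 to 4, and the IgG replicates were at 268, 274, 284 and 375 CPM. The groups did not overlap, but replicate 4 lay far above the other IgG libraries, and the log2 fold change of 0.24 had an interval from -0.026 to 0.50. With the length and GC offsets Prdx5 was at 0.30 (SE 0.075, unadjusted p = 0.00306, adjusted p = 0.130, edgeR's quasi-likelihood test). Trmt112, which overlaps 19.1% of its exon bases, was at -0.17.

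Sod2, the mitochondrial superoxide dismutase, was higher in all 4 pairs, by 0.11 to 0.30 on the log2 scale. Its fitted value was 0.19 with an interval from -0.0076 to 0.38. With offsets that remove length and GC trends, it was higher in 2 of the 4 pairs. Sod1, the cytosolic enzyme, ranged from -0.30 in pair 3 to 0.50 in pair 4, and catalase (Cat) from -0.19 in pair 4 to 0.21 in pair 3.

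The enzymes that supply NADPH for these reductases and for the oxidase differed little between the groups. G6pdx and Pgd, the oxidative enzymes of the pentose phosphate pathway, were at 0.015 and -0.052 on the log2 scale. Taldo1 and Tkt, of its nonoxidative branch, were at -0.075 and 0.099, and malic enzyme (Me1) was at 0.072. All 5 intervals lay within 0.5 of 0.

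The median log2 fold change over the 4 oxidase subunits was 0.15 (0.048 with total counts alone, 0.093 without pair 4 and 0.064 without pairs 2 and 4), but the subunits differed from each other within pairs. Ncf1, which encodes the organizer p47phox, was at 286, 252, 265 and 247 CPM in control replicates 1 to 4 and at 334, 302, 324 and 307 CPM in IgG. All IgG libraries were above all controls, and the 4 pairs gave nearly the same value, 0.23, 0.26, 0.29 and 0.31 on the log2 scale. The fitted log2 fold change was 0.27 (SE 0.083, interval 0.081 to 0.46), 1.21-fold, with an unadjusted p of 0.0109 and an adjusted p of 0.360 in edgeR's quasi-likelihood test. Its 4 pair values thus lay closer together than those of Fth1. Ncf1 shares 11.1% of its exon bases with Gtf2ird2 on the opposite strand, which had a log2 fold change of 0.14.

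The membrane partners had opposite signs in 3 of the 4 pairs. Cybb controls were at 1543, 1481, 1392 and 1447 CPM and its IgG libraries at 2314, 1526, 2087 and 1280 CPM. Cyba controls were at 536, 532, 524 and 508 CPM and its IgG libraries at 458, 539, 467 and 705 CPM. In pairs 1 and 3 Cybb was higher and Cyba lower with IgG, and in pair 4 Cybb was lower and Cyba higher. With the length and GC offsets this held in pair 4 only, where Cybb was at -0.017, and both genes were higher in pairs 1, 2 and 3. The intervals contained 0 for both, from -0.084 to 0.60 for Cybb and from -0.27 to 0.32 for Cyba. Ncf4, which encodes p40phox, was at 0.037, with an interval from -0.19 to 0.26.

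**Figure D3:**
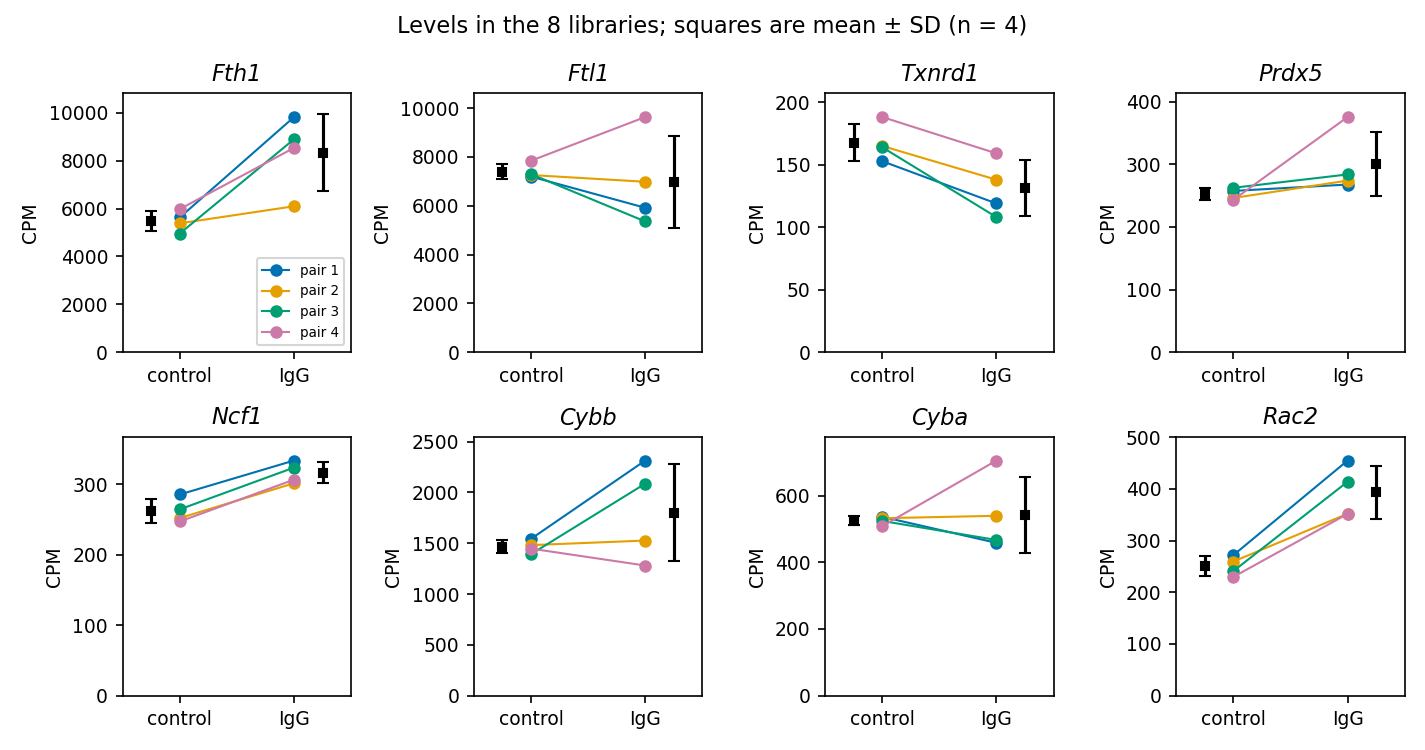
CPM of 7 members and of Rac2 in the 8 libraries (circles; lines join the 2 cultures of one date; squares, mean ± SD, n = 4; axes start at 0). For Fth1, Prdx5, Ncf1 and Rac2 the IgG circle is above the control circle in all 4 pairs, whereas Cybb and Cyba lie in opposite directions in pairs 1, 3 and 4.

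The pairs differed in which members were higher. The changes of the 34 members were alike in pairs 1 and 3, with the same sign for 31 members (Spearman's rho 0.85 across genes), and in pairs 1 and 4 the sign was shared by 14 (rho -0.23). Pairs 2 and 4 shared the sign of 21 members (rho 0.60). With the length and GC offsets rho was 0.88 in pairs 1 and 3 and 0.59 in pairs 2 and 4. In pair 4, 25 members were higher and 9 lower, against 19 and 15 in pair 1. The change within a pair also went with the GC content of the transcript: across the 34 genes rho was -0.42, 0.15, -0.22 and 0.54 in pairs 1 to 4, and across 17503 genes it was -0.38, -0.031, -0.39 and 0.31. Genes are not independent replicates and share the library, so that these correlations are descriptions. With offsets for length and GC content, Cyba and Ncf4 were higher in all 4 pairs, and Fth1 kept a value of 0.58 (adjusted p = 0.114, edgeR's quasi-likelihood test). In that fit 0 members were called, beside 1.18% of all genes, and 7 had an unadjusted p under 0.05, beside 14.2% of all genes: Keap1, Gclm, Gpx4 and Prdx5 joined Fth1, Txnrd1 and Ncf1.

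**Figure D4:**
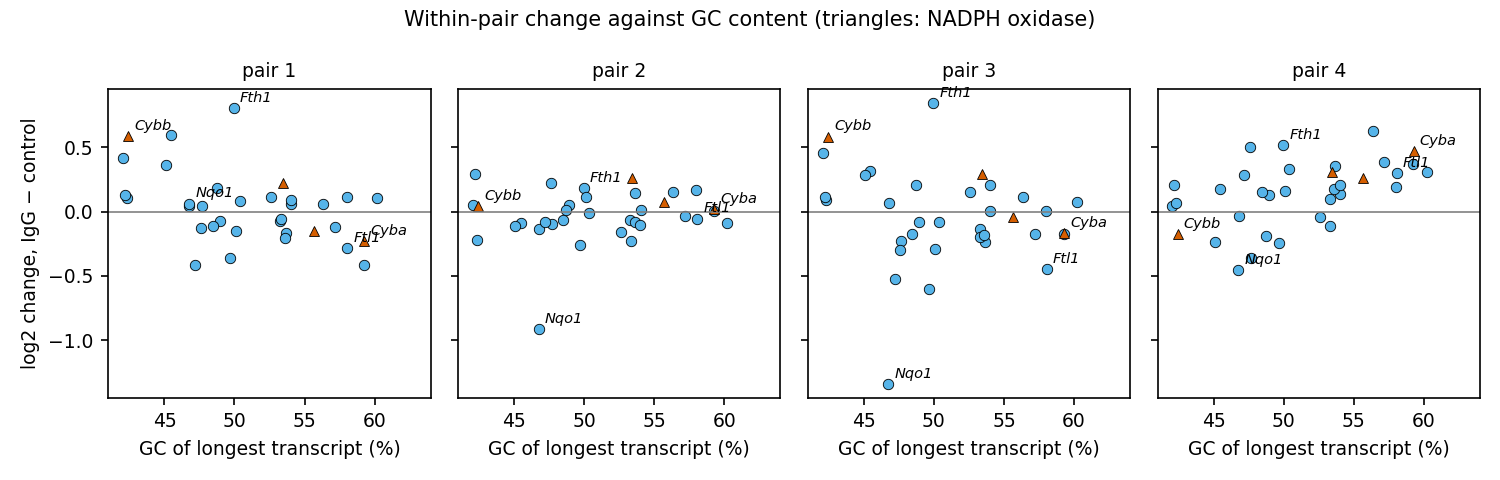
Log2 change within each pair (vertical axis) against GC content of the longest transcript in percent (horizontal axis) for the 34 genes; triangles mark the NADPH oxidase subunits. The trend falls in pairs 1 and 3 and rises in pair 4, with Cybb and Cyba near its 2 ends, while Fth1 lies above 0 in each pair.

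The count of called members depended on which pairs were used. With pairs 1 and 3 alone, an alternative chosen after the data were seen, 20 of the 34 members had an adjusted p under 0.05 in the same edgeR test, as did 7682 of 17612 genes (43.6%). Those 20 included Fth1 (log2 fold change 0.81), Cybb (0.57) and Ncf1 on the higher side and Txnrd1 (-0.50), Txn1 (-0.49) and Cyba (-0.22) on the lower. That fit has 2 pairs and a single residual degree of freedom per gene, and the pairs were picked because their IgG libraries look alike, so that its calls describe these 4 libraries. With pairs 2 and 4 alone, 0 members were called, beside 1.07% of all genes, and 4 had an unadjusted p under 0.05, beside 8.24%.

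Other genes of the same pathways were taken from a list of 102, of which 84 had enough counts. Of these, 1 was called, beside 0.393% of all genes, and it belongs to the oxidase. Rac2, the GTPase of the active complex, was at 272, 260, 241 and 230 CPM in the controls, and its IgG libraries were at 455, 352, 414 and 352 CPM. All IgG libraries lay above all controls and each pair was higher, by 0.44 to 0.78 on the log2 scale. Rac2 rose by 0.64 (SE 0.095) with an adjusted p of 0.0381 in edgeR's quasi-likelihood test, which became 0.373 without the block. The call was also lost without pair 1, 2 or 3 and with scaling by total counts. It was lost too in every fit without the block that left out 1 library. Of all genes, 69 were called in the main fit and 14, 0 and 16 without pairs 1, 2 and 3. With total counts 37 of all genes were called. The log2 fold change of Rac2 stayed between 0.53 and 0.74 over all alternatives. No other oxidase gene of the list passed, and among them Rac1 was at 0.15, Cybc1, a chaperone of gp91phox, at 0.10, and the proton channel Hvcn1 at -0.14. Of 15 further oxidase genes listed, 8 could be tested. Nox4 had 7 counts over all libraries and Duox1 had 3.

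Glrx, the cytosolic glutaredoxin, which reduces mixed disulfides with glutathione, met the unadjusted criterion. It was at 147, 115, 163 and 109 CPM in the controls, and its IgG libraries were at 377, 164, 387 and 161 CPM, so that IgG replicates 1 and 3 were far above the rest and the groups overlapped slightly. Its log2 fold change was 0.92 with an adjusted p of 0.0620 in the same test. Glrx was called with the length and GC offsets (adjusted p = 0.00957), by the likelihood ratio test, by DESeq2 and with no filter. It was also called without replicate 4, beside 182 of all genes, and without replicates 2 and 4. It was not called by limma-voom, under any of the 3 other scalings or with at least 10 counts in every library. Nor was it called without replicate 1, 2 or 3, where 14, 0 and 16 of all genes were called. The same held for every fit without the block that left out 1 library. Leaving out the block alone brought its adjusted p to 0.692 (edgeR's quasi-likelihood test). Without pairs 1 and 3 its log2 fold change was 0.54 (edgeR, adjusted p = 0.0186). Over the 84 genes tested, 8 were higher and 3 lower at an unadjusted p under 0.05, beside 6.35% and 3.85% of all genes, and the median log2 fold change was 0.037.

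The RefSeq promoter table matched 29 of the 34 members (GRCm38.p6; 250 bases before to 50 after a start). The core of the ARE, TGACNNNGC on either strand, was found in 9 members, in 23.7% of their 38 windows against 12.4% of 32851 windows of all genes. Its sites follow for the 6 members where the core and 10 bases on each side lay before the start, with the core in capitals. In Srxn1, Pgd and Me1 the core spans or follows the start and is not shown.
Nfe2l2, chr2:75704885-75704913, minus strand: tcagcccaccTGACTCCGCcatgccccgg
Gclm, chr3:122245413-122245441, plus strand: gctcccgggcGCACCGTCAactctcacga
Txnrd1, chr10:82859104-82859132, plus strand: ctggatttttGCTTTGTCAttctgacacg
Prdx1, chr4:116685456-116685484, plus strand: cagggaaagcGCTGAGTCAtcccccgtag
Sod1, chr16:90220696-90220724, plus strand: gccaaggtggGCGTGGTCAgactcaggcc
G6pdx, chrX:74428919-74428947, minus strand: aggcgggtcaGCTCAGTCAaagcacacgc

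The ISRE core, GAAANNGAA, the element of type I interferon responses, was found in Gpx4, Cybb and Ncf1, in 7.90% of member windows and 8.56% of all windows. The GAS core, TTCNNNGAA, the element of interferon gamma responses, was found in Txnrd1, Sod2 and Ncf1, in 10.5% of member windows and 8.30% of all windows, so that both shares of the members were near those of all genes. The 250 bases before the starts of Ncf1 and Cybb are shown because these 2 oxidase genes hold the ISRE core. Matches of either core are in capitals, and in Ncf1 the GAS and ISRE matches overlap. A match is a description of the letters and does not show a bound site.
Ncf1, chr5:134229626-134229875, minus strand: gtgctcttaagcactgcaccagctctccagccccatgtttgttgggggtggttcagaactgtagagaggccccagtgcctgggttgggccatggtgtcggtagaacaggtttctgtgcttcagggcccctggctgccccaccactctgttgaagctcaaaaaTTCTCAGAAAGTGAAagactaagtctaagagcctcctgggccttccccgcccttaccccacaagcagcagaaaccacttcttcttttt
Cybb, chrX:9469325-9469574, minus strand: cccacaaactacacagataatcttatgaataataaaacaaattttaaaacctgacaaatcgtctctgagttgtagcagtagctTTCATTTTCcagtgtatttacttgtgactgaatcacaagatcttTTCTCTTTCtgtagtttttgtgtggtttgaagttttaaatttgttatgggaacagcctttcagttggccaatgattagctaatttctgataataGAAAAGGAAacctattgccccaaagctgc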

How the data were processed

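The RNA-seq data comprised 4 control and 4 IgG libraries of cultured microglia. The authors deposited raw counts for each Ensembl identifier, with no normalization. Their processing notes name HISAT2 2.2.1, SAMtools 1.12, Picard 2.26.3, featureCounts and edgeR 3.36.0 with build GRCm38, and the settings for strand and overlapping genes are not given in the sources used here. Gene symbols and transcript properties were taken from GENCODE M21, where 55144 of the 55385 identifiers were found.

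Counts were filtered with filterByExpr, scaled by TMM and compared by glmQLFTest (edgeR 4.0.16, R 4.3.3; the quasi-likelihood test), using the replicate number as a block and Benjamini-Hochberg adjustment over all 17537 genes tested. Pair changes are differences of log2 CPM (prior count 2), and RPKM is CPM per kilobase of all annotated exons of the gene. The block was made the main design because the members are compared by date. The labels give same-numbered libraries one date, and their deviations from the group means correlated at 0.47, 0.43, 0.28 and 0.33 across 11928 genes, against -0.38 to 0.28 for other numbers. Nothing in the labels says that the cultures came from separate litters. The p-values with the block thus measure how the difference with IgG varied between pairs of cultures. Those without the block measure the spread between cultures. Within a group, no 2 libraries agreed within sampling noise (chi-square per degree of freedom at least 5.0).

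All 34 members were named, and of the pathway list the genes past adjustment or the criterion; other pathway genes and markers given with values were chosen after these were seen. The members, lists and tests were chosen with earlier results of these data known. Alternatives were the fit without the block, the likelihood ratio test, DESeq2 1.42.0, limma-voom (limma 3.58.1), other scalings and filters, a length and GC correction (lowess, span 0.3) and leaving out each pair or library. The fits without replicates 1 and 3 and without replicates 2 and 4, the Fth1 to Ftl1 ratio and the search for overlapping genes and copies (blastn 2.17.0, at least 95% identity over 150 bases) were chosen after the data were seen. The scripts were tested on simulated data.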

Additional observations from a re-analysis of the deposited data

Results flagged for a closer look

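Each group of 4 libraries was checked for a library far from the others, in 68 groups (34 genes in control and in IgG), by Dixon's ratio at its 95% critical value. Chance gives such a library in about 1 group in 20, and 2 were found. Ftl1 was at 7843 CPM in control replicate 4, where the nearest control was at 7294 CPM and the lowest at 7194 CPM. Prdx5 was at 375 CPM in IgG replicate 4, where the nearest IgG library was at 284 CPM and the lowest at 268 CPM. Both libraries belong to the fourth date.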

How the results depend on the processing

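Of the 34 members, 0 were called in the fit with the replicate block and 0 without the block. The pairing lost or gained no member call in edgeR's quasi-likelihood test. Fth1 was called by the likelihood ratio test, by DESeq2 and with no filter on low counts (1 each), and 20 were called without replicates 2 and 4, an alternative added after the data were seen. Leaving out 1 pair or 1 library gave 0 called members in every case, but few genes of any kind were called in most of these fits. Of all genes, 14, 0, 16 and 182 were called without replicates 1 to 4. When 1 library was left out, 0 to 6 of all genes were called, so that a count of 0 is not particular to the members. The criterion was met by 0 members with total counts alone and without replicates 1 and 3, by 2 (Fth1 and Cybb) without replicates 2 and 4, and by 0 to 1 when 1 pair or library was left out. Of the pathway genes, 1 was called with the replicate block (0.393% of all genes), and 0 with no replicate block (0% of all genes). With total counts alone 0 were called, beside 37 of all genes. The count was 2 by the likelihood ratio test (1.86% of all genes), DESeq2 (1.46%), no filter (1.2%) and the length and GC correction with the block (1.18%). When 1 pair or library was left out, 0 to 2 were called, beside the counts of all genes given above for these fits. Without replicates 1 and 3 it was 2 (1.07% of all genes) and without replicates 2 and 4 it was 43 (43.6%). The cause was not tested.

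For single members, a direction was read only where the log2 fold change exceeded its SE, a rule set after the first fit was seen, and no member reversed under it. Plain signs did change, for 14 members with total counts alone, 12 without replicates 1 and 3, and 8 without replicate 4 or without replicates 2 and 4. Total counts alone moved the median of all genes to -0.11, and 8 members were then above 0 instead of 22. The median of the members ran from -0.075 to 0.082 over all alternatives. Genes such as Nqo1, with 8 to 29 counts, are limited by depth.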
